A study of Bos taurus with 6 samples.

Results

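The insulin-like growth factor (IGF) genes described here are the ligands IGF1 and IGF2, the receptors IGF1R, IGF2R and INSR, the IGF binding proteins IGFBP2, IGFBP3, IGFBP4 and IGFBP5 and the binding protein protease PAPPA. They were chosen by gene symbol, with earlier results of these data known. Each of the 10 symbols is carried by 1 transcript cluster, the unit in which the array reports a gene, so that 10 of the 26773 transcript clusters of the deposited table were followed. The data are Bovine Gene 1.0 ST Array signals of primary bovine granulosa cells (GC), the somatic cells that line the follicle, in 6 cultures with 1 array each. In 3 cultures the GC were plated at normal density, 100000 cells per well, and in 3 at high density, 1000000 cells per well. The question of this comparison was how a high plating density changes gene expression in GC.

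All 6 cultures were kept serum-free in α-MEM for 9 days on collagen-coated plates in a medium with insulin (10 ng/ml), to which R3 IGF-1 (50 ng/ml), FSH (20 ng/ml) and androstenedione (2 μM) were added. An IGF ligand and insulin were therefore supplied to both densities, at the same concentrations but for unlike numbers of plated cells. R3 IGF-1 is an analogue of IGF-1 known to bind IGF binding proteins only weakly. The GC were aspirated from follicles below 6 mm, and each preparation pooled cells from 30 to 50 ovaries of abattoir cows of undefined cycle stage. A difference between densities is therefore one between pools and not between single animals. Per the methods the RNA came from 6 GC preparations, 3 for each density, and whether the letters a, b and c mark anything shared between the densities is not given in the sources used here.

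IGF1 and IGF2 are secreted peptides that act through IGF1R, a receptor tyrosine kinase, and IGF2 also through INSR, the insulin receptor. IGF2R, the cation-independent mannose 6-phosphate receptor, takes up IGF2 for degradation in lysosomes. The binding proteins hold IGFs in the extracellular fluid and limit their access to receptors, while PAPPA, a metalloproteinase, cuts IGFBP4 in the presence of IGF and also IGFBP5, which releases the ligand. In the follicle IGFs are known to strengthen the response of GC to FSH, and low levels of IGFBPs and PAPPA activity against IGFBP4 are known from dominant follicles.

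The signals are log2 values made with the RMA procedure, with array medians from 4.34 to 4.43. The 95th percentile of the 82 reporter control rows, 4.62, served as the background level, and for 51.2% of all transcript clusters both group means were at or below it. Without high density replicate 2, 2434 transcript clusters were called in place of 2005 by the thresholds given below, so the log2 FC without this culture is given beside those of the members and of the called pathway genes. Of the 12 GC markers, 11 were above the background level at each density, the exceptions being HSD17B1 at normal and CYP19A1 at high density. By the same thresholds 6 of these 12 were down-regulated and 1 up-regulated. The summed linear signal of all 12 was between 5725 and 6203 at normal and between 4428 and 4726 at high density. This fall was carried by the called markers, since the 5 not called summed to between 2762 and 2827 at normal and between 3122 and 3210 at high density. None of the 6 leukocyte and 4 red blood cell markers reached the background level. Of the theca markers, 3 of 5 were above it at each density (INSL3, NR2F2 and PTCH1), of the endothelial markers 2 of 6 (VWF and CLDN5), and of the markers of stromal fibroblasts 5 of 5. In such RNA of whole cultures, fewer cells of a type and less RNA per cell cannot be told apart.

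In GC at high density IGF2, IGFBP3 and PAPPA were up-regulated and IGFBP4 was down-regulated. These 4 members passed all thresholds of the methods, a fold change (FC, high over normal density) above 1.5 in size together with a p-value and an FDR below 0.05 in limma's moderated test, adjusted by Benjamini-Hochberg over the whole table, and are termed called. Calls were made for 7.49% of all transcript clusters, 3.97% up and 3.51% down. With the FC left aside, 7 of the 10 members passed the FDR threshold, as did 19.1% of all transcript clusters, and in 8 members the signals of the densities did not overlap, as in 37.3% of all. The median size of the log2 FC was 0.42 over the members and 0.15 over all transcript clusters, while the signed medians were 0.03 and 0.02. For 1 of the 10 members both group means were at or below the background level, beside 51.2% of all transcript clusters. These shares and medians are therefore over unlike sets. With 3 cultures on each side a two-sided exact permutation test cannot give less than p = 0.1, which was the value for each of the 8 members without overlap.

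**Figure D1:**
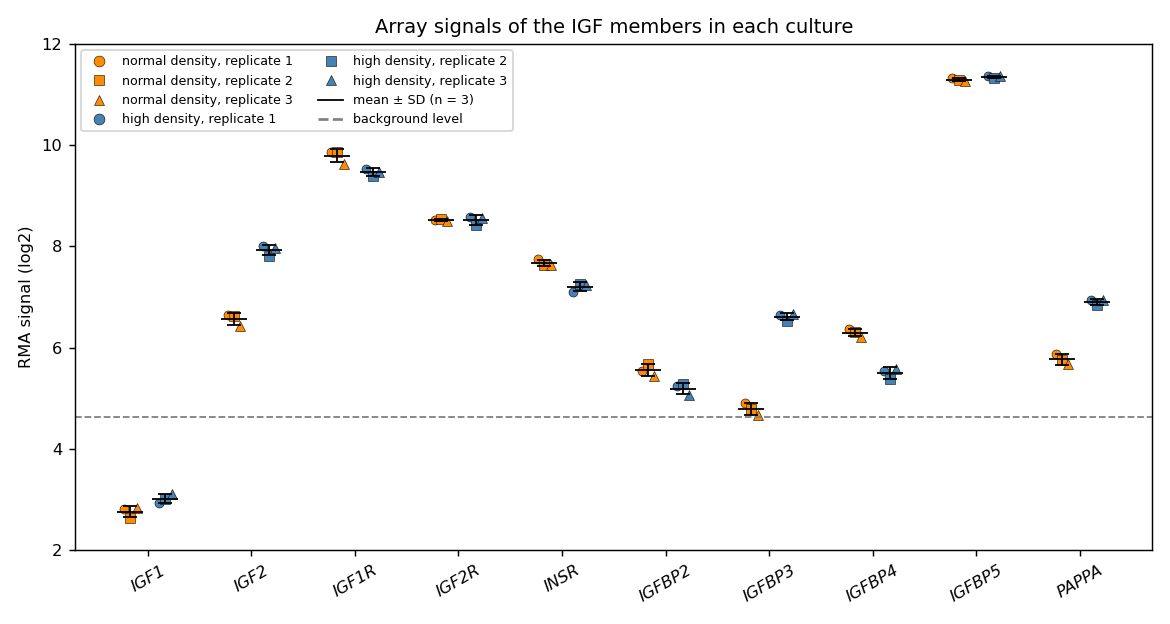
RMA log2 signals of the 10 members in each of the 6 cultures, orange at normal and blue at high density, with symbols for replicates 1 to 3, black lines for the mean ± SD (n = 3) and a dashed line at the background level of 4.62. The groups are wide apart for IGF2, IGFBP3, IGFBP4 and PAPPA, they overlap for IGF2R and IGFBP5, and IGF1 lies below the background level. Heights of different genes are not comparable, since each is read by its own probes.

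Among the ligands, IGF2 was up-regulated. Its log2 signals were 6.65, 6.63 and 6.44 in normal density replicates 1 to 3 and 8.00, 7.81 and 7.96 in high density replicates 1 to 3. All high density cultures were above all normal density cultures, and the gap between the groups, 1.16, was wider than the range within either group, at most 0.22. The mean changed from 6.57 ± 0.12 to 7.93 ± 0.10 (SD, n = 3), a log2 FC of 1.35 (standard error, SE, 0.09 and adjusted p = 1.15e-04 in limma) or an FC of 2.56. This change was larger in size than that of 98.9% of all transcript clusters. Without high density replicate 2 it was 1.41, and with each culture left out in turn between 1.29 and 1.41. IGF2 is known as a product of theca cells in vivo, so the theca markers are given here, although the aspiration used is described in the methods as leaving theca cells behind. INSL3, a peptide hormone of theca and Leydig cells, was called, with a log2 signal of 7.20 ± 0.06 (SD, n = 3) in normal density cultures and 9.02 ± 0.15 in high density cultures. CYP17A1, the theca enzyme of androgen synthesis, had 2.93 and 2.92, and TCF21 was below the background level as well. NR2F2 and PTCH1 were not called, so that 1 of 5 markers was called. PTCH1 passed the FDR but not the FC threshold, with a log2 FC of 0.31 (adjusted p = 0.0284 in limma) and without overlap. NR2F2 had −0.07 (adjusted p = 0.652 in limma), with overlapping groups. The summed linear signal of these markers was between 304 and 337 at normal and between 658 and 769 at high density, a rise carried by INSL3, since the 4 other markers summed to between 162 and 183 at normal and between 178 and 184 at high density. Of the endothelial markers 1 of 6 was called, CLDN5, with a log2 FC of 2.81 and a summed linear signal of the list between 90.1 and 95.4 at normal and 245 and 282 at high density. The 5 endothelial markers other than CLDN5 summed to between 64.9 and 67.4 and to between 68.9 and 79.1. COL1A1 was the called marker among the 5 of stromal fibroblasts, with a log2 FC of 1.15 and sums between 5248 and 5398 and between 5677 and 5831. The 4 other stromal markers summed to between 5149 and 5303 at normal and between 5473 and 5654 at high density. COL3A1 and PDGFRA passed the FDR but not the FC threshold, with log2 FCs of 0.39 (adjusted p = 0.0302 in limma) and 0.32 (adjusted p = 0.0236). DCN and LUM passed neither. The part of such cells in the IGF2 result was not tested.

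For IGF1 the log2 signals were 2.80, 2.64 and 2.84 at normal density and 2.94, 3.00 and 3.12 at high density. All 6 values were below the background level. The log2 FC was 0.26 (SE 0.09 and adjusted p = 0.0817 in limma), with a 95% interval from 0.06 to 0.46, and IGF1 was not called. The log2 FC was 0.27 without high density replicate 2. The 9 other members were above the background level at both densities.

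None of the 3 receptors was called. For INSR the log2 signals were 7.75, 7.64 and 7.63 at normal density and 7.10, 7.27 and 7.24 at high density. Although these groups did not overlap and the adjusted p was 0.00535 in limma, the log2 FC of −0.47 (SE 0.08) stayed below the FC threshold, which is 0.58 on the log2 scale. Its 95% interval, from −0.65 to −0.29, includes that threshold. With high density replicate 2 left out the log2 FC was −0.50.

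IGF1R had log2 signals of 9.86, 9.86 and 9.64 at normal density and of 9.54, 9.38 and 9.46 at high density. The groups were 0.10 apart, less than the range of 0.22 within normal density. The log2 FC of −0.33 (SE 0.09 and adjusted p = 0.0419 in limma) was below the FC threshold, and the FDR call depended on single cultures. Without high density replicate 2 the log2 FC was −0.29. The adjusted p was 0.0364 without normal density replicate 3, while leaving out any other single culture gave values between 0.0630 and 0.143.

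The signals of IGF2R were 8.52, 8.54 and 8.49 at normal density and 8.59, 8.42 and 8.56 at high density. High density replicate 2 was the lowest of the 6 cultures and the other high density cultures were the highest. The log2 FC was 0.00 (SE 0.07 and adjusted p = 0.989 in limma) with a 95% interval from −0.17 to 0.17, which excludes the FC threshold in both directions. It was 0.05 without high density replicate 2, and its sign was negative when each array was shifted to the same median (−0.04).

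**Figure D2:**
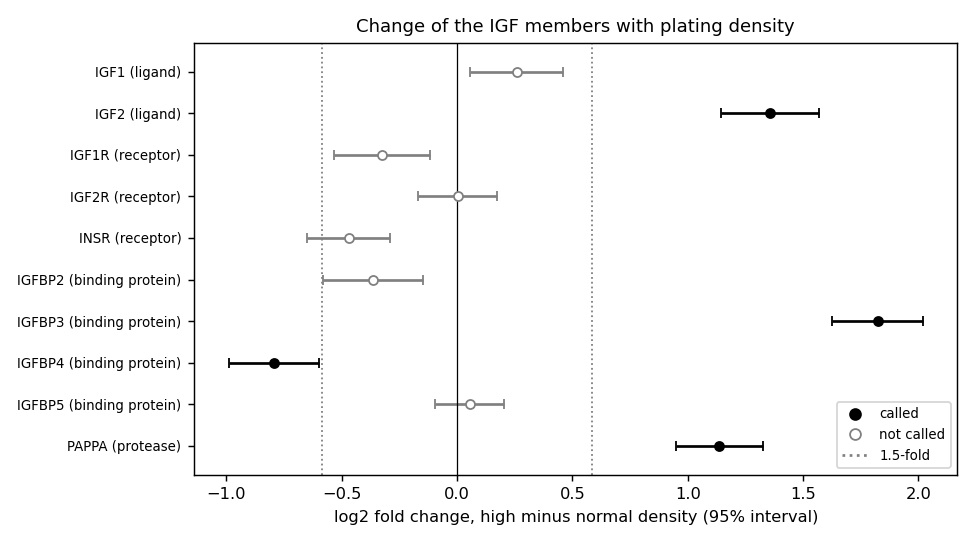
Log2 fold changes of the 10 members, high minus normal density, with 95% intervals from limma, filled for called members and open for the others, and dotted lines at an FC of 1.5. The intervals of IGFBP3, IGF2 and PAPPA lie wholly above the upper line and that of IGFBP4 wholly below the lower line.

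The binding proteins differed in direction, with 1 of 4 up-regulated, 1 down-regulated and 2 not called. IGFBP3, the main IGF carrier of serum, was up-regulated. Its log2 signals were 4.91, 4.78 and 4.68 at normal density, all just above the background level, and 6.64, 6.53 and 6.66 at high density. The means were 4.79 ± 0.12 and 6.61 ± 0.07 (SD, n = 3), and the gap between the groups was 1.63. The log2 FC of 1.82 (SE 0.08 and adjusted p = 2.34e-05 in limma), an FC of 3.54, was the largest of the 10 members and larger in size than that of 99.5% of all transcript clusters. It was 1.86 without high density replicate 2, and between 1.77 and 1.88 with single cultures left out. As the normal density signals were close to the background level, the size of this rise is limited by it.

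IGFBP4, the binding protein that PAPPA cuts, was down-regulated. Signals of 6.36, 6.30 and 6.22 at normal density stood against 5.54, 5.38 and 5.59 at high density, without overlap and with a gap of 0.63. The means were 6.29 ± 0.07 and 5.50 ± 0.11 (SD, n = 3), and the log2 FC was −0.79 (SE 0.08 and adjusted p = 7.86e-04 in limma), an FC of 1.73 in size. High density replicate 2 had the lowest signal, and without it the log2 FC was −0.73. With each culture left out it remained between −0.84 and −0.73 and was called.

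IGFBP2 had log2 signals of 5.54, 5.68 and 5.44 at normal density and of 5.23, 5.27 and 5.06 at high density. The log2 FC of −0.36 (SE 0.09 and adjusted p = 0.0331 in limma) was below the FC threshold. The FDR of IGFBP2 depended on single cultures, with an adjusted p of 0.0279 (log2 FC −0.41) without high density replicate 2 and between 0.0516 and 0.116 without any other culture.

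IGFBP5, which binds IGFs and components of the extracellular matrix, had log2 signals of 11.33, 11.29 and 11.27 at normal density and of 11.37, 11.32 and 11.36 at high density. The groups overlapped, and the log2 FC was 0.06 (SE 0.06 and adjusted p = 0.607 in limma) with a 95% interval from −0.10 to 0.21, within the FC threshold on both sides. It was 0.07 without high density replicate 2. The interval covers the spread between arrays only, and whether signals of this strength are compressed was not tested.

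PAPPA was up-regulated at high density, in the direction opposite to that of IGFBP4. The log2 signals were 5.88, 5.76 and 5.67 at normal density and 6.94, 6.84 and 6.95 at high density. The groups were 0.96 apart, without overlap. The means of 5.77 ± 0.11 and 6.91 ± 0.06 (SD, n = 3) gave a log2 FC of 1.14 (SE 0.08 and adjusted p = 1.39e-04 in limma), an FC of 2.20. It was 1.17 without high density replicate 2 and between 1.09 and 1.19 over all single cultures left out.

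**Figure D3:**
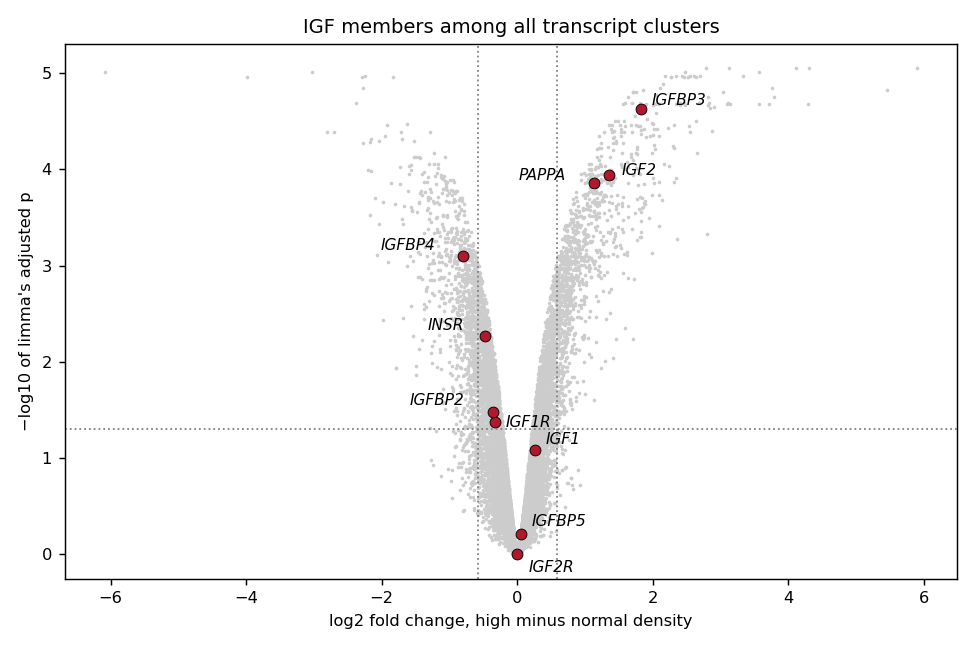
Log2 fold change, high minus normal density, on the x axis against −log10 of limma's adjusted p on the y axis for all 26773 transcript clusters (grey) and the 10 members (red), with dotted lines at an FC of 1.5 and an FDR of 0.05. IGFBP3, IGF2, PAPPA and IGFBP4 lie beyond both lines, INSR, IGFBP2 and IGF1R pass the FDR line only, and IGF1, IGFBP5 and IGF2R pass neither.

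Within the high density group, replicate 2 had the lowest signal of the 3 cultures for 7 of the 10 members, among them all 4 called members. It was the high density culture nearest to the normal density mean for 6 members. For IGF2, IGFBP3 and PAPPA this lowest signal was toward normal density and for IGFBP4 away from it. The SD over cultures was larger at high than at normal density for 3 of the 10 members, IGF2R, INSR and IGFBP4. For these counts of 7, 6 and 3 members, shares over all transcript clusters are not given. Nothing particular to the members is read from them. The 4 calls were made with each culture left out in turn, replicate 2 of high density included.

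**Figure D4:**
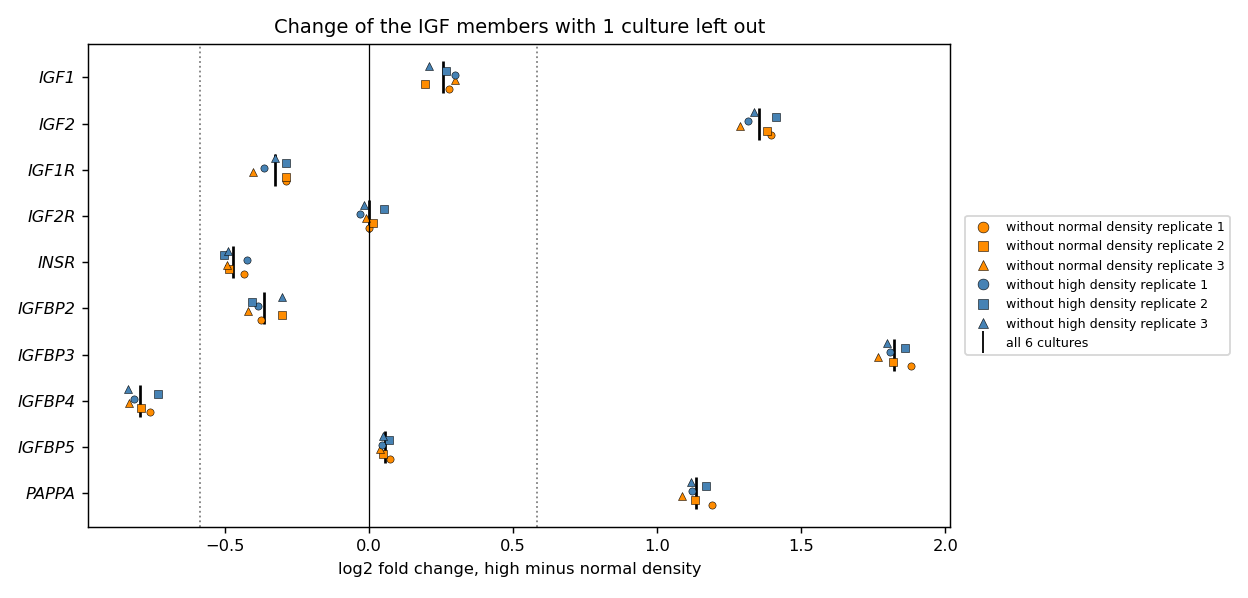
Log2 fold changes of the 10 members with 1 culture left out, orange for a normal and blue for a high density culture, beside the value of all 6 cultures (black bar) and dotted lines at an FC of 1.5. The values of IGF2, IGFBP3, IGFBP4 and PAPPA stay beyond the dotted lines with any culture left out, and those of IGF2R lie between −0.03 and 0.05, on both sides of 0.

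By likeness of pattern, measured as the Euclidean distance between the 6 log2 signals after centring on their mean, the transcript clusters nearest to IGFBP3 were FBLN1, an extracellular matrix glycoprotein, at a distance of 0.12, FAM196A at 0.17 and the amino acid transporter gene SLC1A4 at 0.17. Nearest to IGF2 were ADAMTS12, a metalloproteinase, at 0.10, CPXM1 at 0.12 and PAQR7, a membrane progestin receptor, at 0.12. Nearest to PAPPA were the calcium channel gene RYR1 at 0.07, CRABP2, which binds retinoic acid, at 0.09 and ITPKA, a kinase of inositol trisphosphate, at 0.09. All of these distances are over 6 arrays and mostly reflect a log2 FC of similar size, between 1.77 and 1.85 for those of IGFBP3, between 1.32 and 1.41 for those of IGF2 and between 1.10 and 1.17 for those of PAPPA. They are a description and carry no test.

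Further genes of the IGF pathway were followed through 39 transcript clusters, each of 1 gene (IRS2 was not analysed here). Among these, 5 were up-regulated and 2 down-regulated, 17.9% in all beside the 7.49% of all transcript clusters. Their median size of log2 FC was 0.22. For 9 of the 39 both group means were at or below the background level, beside 51.2% of all transcript clusters, so the 2 shares of calls are over unlike sets. Without high density replicate 2 the log2 FC was 2.52 for STC2, 1.62 for ADAM12, 1.14 for GRB10, 0.99 for IGF2BP2, 1.001 for EIF4EBP1, −1.74 for GRB14 and −1.12 for PIK3R1, and each was called.

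Outside the cells, the genes that act on PAPPA and on the binding proteins gave 2 calls. STC2, stanniocalcin 2, is a secreted glycoprotein known to inhibit PAPPA. Its log2 signals were 3.93, 4.13 and 4.18 at normal density, which is below background, and 6.61, 6.69 and 6.60 at high density. The log2 FC was 2.55 (SE 0.09 and adjusted p = 1.07e-05 in limma), the largest of the 39 genes, and its size is limited by the background level. ADAM12, a metalloproteinase known to cut IGFBP3 and IGFBP5, had signals of 5.17, 5.31 and 5.38 against 6.89, 6.78 and 6.91, a log2 FC of 1.58 (SE 0.08 and adjusted p = 4.07e-05 in limma). STC2, ADAM12 and PAPPA were thus all higher in every high density culture than in any normal density culture.

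STC1, which is related to STC2, missed the FC threshold with a log2 FC of 0.28 (adjusted p = 0.0382 in limma). PAPPA2, a relative of PAPPA, had signals below the background level and a log2 FC of 0.12, and was not called. Of the other proteases, HTRA1 and CTSD had log2 FCs of 0.00 and 0.01 and were not called. PLAT had 0.32 (adjusted p = 0.0257 in limma) and PLAU −0.39 (adjusted p = 0.00841), which passed the FDR but not the FC threshold. The mean of PLAU was above the background level at normal density only. None of the 5 further binding proteins and relatives was called either. IGFBP6 had a log2 FC of 0.47 (adjusted p = 0.0279 in limma) with signals between 4.94 and 5.23 at normal and between 5.37 and 5.67 at high density. IGFBP7, a relative of low IGF affinity, had a log2 FC of 0.00, while IGFBP1 and IGFBPL1 were below the background level. IGFALS, the acid-labile subunit that holds IGFBP3 in the ternary complex of serum, reached the background level at high density only. It had a log2 FC of 0.35 (adjusted p = 0.0325 in limma).

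**Figure D5:**
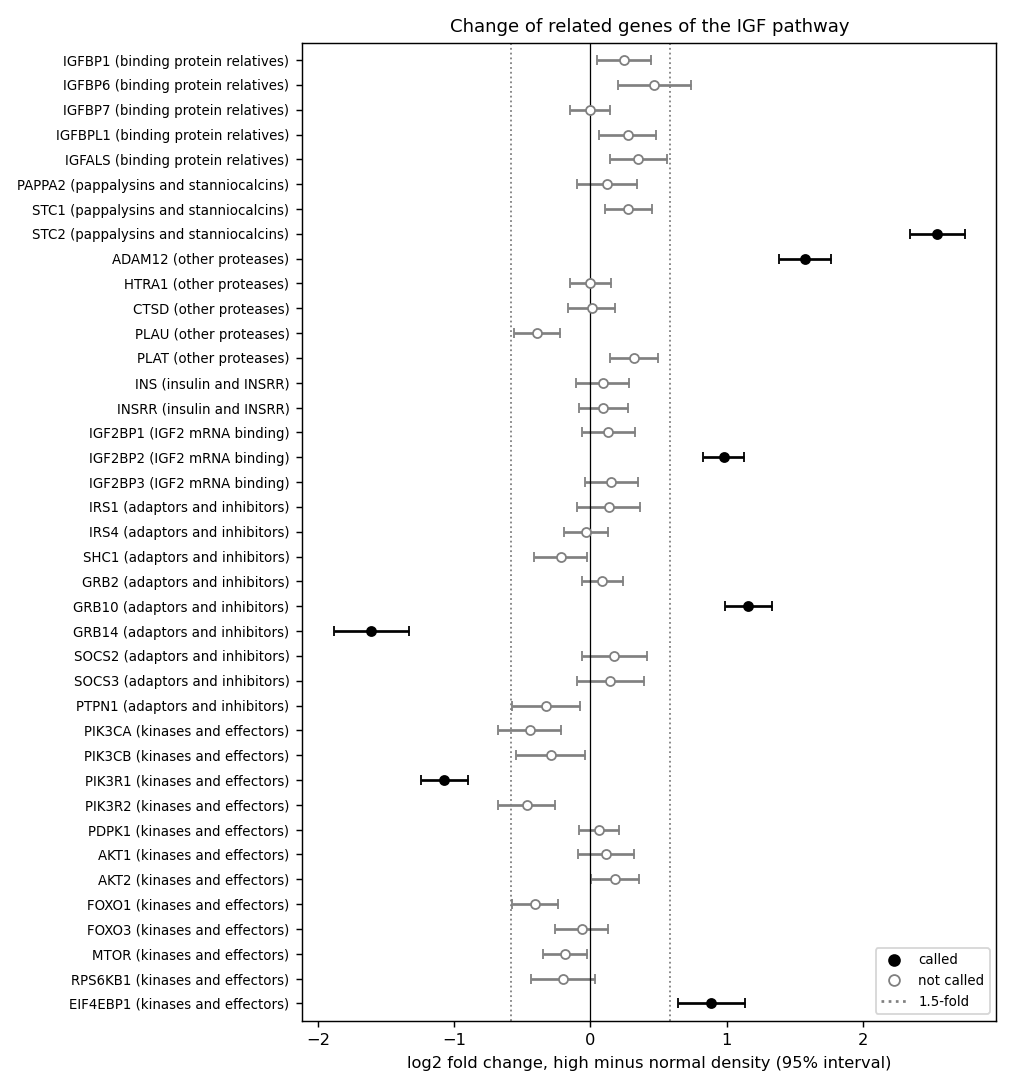
Log2 fold changes, high minus normal density, of the 39 further genes of the IGF pathway with 95% intervals from limma, filled where called, and dotted lines at an FC of 1.5. STC2, ADAM12, GRB10, IGF2BP2 and EIF4EBP1 lie on the upper side, GRB14 and PIK3R1 on the lower side, and the remaining 32 were not called.

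Inside the cells, the adaptors GRB10 and GRB14, known to bind the activated insulin and IGF receptors and to restrain their signal, were called in opposite directions. GRB10 had log2 signals of 4.75, 4.69 and 4.58 at normal density, around the background level, and of 5.82, 5.87 and 5.81 at high density, with a log2 FC of 1.16 (SE 0.07 and adjusted p = 9.55e-05 in limma). For GRB14 the signals were 8.74, 8.74 and 8.71 against 7.06, 7.38 and 6.92, a log2 FC of −1.61 (SE 0.12 and adjusted p = 1.69e-04 in limma). In GRB14 high density replicate 2 was the nearest to normal density. The other adaptors and inhibitors, IRS1, IRS4, SHC1, GRB2, SOCS2, SOCS3 and PTPN1, were not called, with log2 FCs between −0.33 and 0.18.

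Of the 12 kinases and effectors, 1 was up-regulated and 1 down-regulated. PIK3R1, the regulatory subunit of the PI3 kinase that carries the receptor signal, had log2 signals of 10.40, 10.36 and 10.42 at normal and of 9.23, 9.42 and 9.32 at high density, which gave a log2 FC of −1.07 (SE 0.07 and adjusted p = 1.32e-04 in limma). EIF4EBP1, a repressor of translation that mTOR phosphorylates, had a log2 FC of 0.89 (SE 0.10 and adjusted p = 0.00128 in limma). PIK3R2, another regulatory subunit, and PIK3CA, a catalytic subunit, passed the FDR but not the FC threshold, with log2 FCs of −0.47 (adjusted p = 0.0110 in limma) and −0.45 (adjusted p = 0.0193). So did FOXO1, a transcription factor that AKT kinases phosphorylate, with −0.41 (adjusted p = 0.00756 in limma). PIK3CB, a further catalytic subunit, had −0.29 (adjusted p = 0.111 in limma) and RPS6KB1, an S6 kinase, −0.20 (adjusted p = 0.213), with overlapping groups. AKT1, AKT2, PDPK1, MTOR and FOXO3 were not called either.

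Of the proteins that bind IGF2 mRNA, IGF2BP2 was called, with log2 signals of 3.42, 3.50 and 3.49 at normal and 4.45, 4.44 and 4.46 at high density. The log2 FC was 0.98 (SE 0.06 and adjusted p = 1.08e-04 in limma), but all 6 signals were below the background level. IGF2BP1 and IGF2BP3 were below it too and were not called. INS and INSRR, the insulin gene and an orphan relative of the insulin receptor, had log2 FCs of 0.09 each and were not called.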

How the data were processed

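RNA of 6 cultures of bovine GC, 3 per density, was hybridized to Affymetrix bovine gene arrays of the ST type. The authors made the deposited log2 signals in Affymetrix Expression Console with the RMA procedure (background reduction, normalization between arrays, gene-level summary), and used Transcriptome Analysis Console 3.0 for tests. RMA can compress changes of weak and of very strong signals. No further normalization was applied here, and 0 columns belonged to other samples. The number of arrays limits the precision.

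The test of high minus normal density used lmFit and eBayes of limma (version 3.58.1, R version 4.3.3) without covariates over all 26773 transcript clusters, with Benjamini-Hochberg adjustment. A call needs an FC above 1.5, p and FDR below 0.05, as in the methods. Standard errors and 95% intervals are limma's. Scripts were tested on simulated data. Plots were made in Python 3.11.15 with matplotlib 3.10.9.

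Members, pathway genes and markers were chosen with earlier results of these data known. Named are all members, the called pathway genes, others of that list by value, the markers, and the 3 nearest patterns of the 3 members with the largest called change. Alternatives were the methods' t-test (their analysis of variance for 2 groups), a replicate block, median and quantile scaling, eBayes with a robust trend, array weights, a filter at the background level and leaving out each culture. RefSeq names and gene order are those of ARS-UCD2.0. Sequences and genome coordinates were not used here. A further 2 genes of the pathway list are not reported here and are left out of its counts.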

Additional observations from a re-analysis of the deposited data

How the results depend on the processing

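The calls of IGF2, IGFBP3, IGFBP4 and PAPPA were made in all 13 alternatives, and the other 6 members were called in none. The log2 FCs ranged from 1.29 to 1.41 for IGF2, 1.77 to 1.88 for IGFBP3, −0.84 to −0.73 for IGFBP4 and 1.09 to 1.19 for PAPPA. IGF1 has no value with the filter at the background level. The sign of the IGF2R change turned, to a log2 FC of −0.041 when arrays were set to a common median, and single cultures left out gave values from −0.030 to 0.054. The number of members with an FDR below 0.05 at any FC was 7, and between 5 and 8 in the alternatives. Under the methods' t-test it was 5, with an adjusted p of 0.0987 for IGF1R and 0.0929 for IGFBP2. Of the 39 further pathway genes 15 passed that FDR, beside 19.1% of all transcript clusters. The number was 10 when either normal density replicate 2 or high density replicate 3 was left out. It was at most 20, without high density replicate 2 or with array weights. The 7 calls of these pathway genes became 6 with the background filter, which removes IGF2BP2, and the number of calls was 7 in the other alternatives.

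No pairing of the samples by replicate number was visible in the signals. With 3 cultures per density, this check cannot tell whether same-numbered cultures shared a preparation. Deviations from the group means of same-numbered cultures correlated with r of 0.05, −0.05 and −0.04 over transcript clusters, and of the high density cultures only replicate 1 correlated best with its own number. With the replicate block 2020 transcript clusters were called instead of 2005, 4 members as before, and the adjusted p of IGF1R was 0.0724. With the 90th percentile of the reporter control rows the background level would be 4.11, and IGF1 would still lie below it.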

Other observations

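In the RefSeq gene order of ARS-UCD2.0, IGFBP2 and IGFBP5 adjoin each other, as do IGFBP3 and IGFBP1, both among protein-coding genes. Neighbours in these pairs had unlike values. IGFBP3 had a called log2 FC of 1.82, while IGFBP1 had 0.25 (SE 0.08 and adjusted p = 0.0865 in limma) at signals below the background level. IGFBP2 had −0.36 and IGFBP5 0.06, and neither was called. The difference between the genes of a pair was not tested.

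Of the 18 protein-coding genes that adjoin a member and are not members, 17 had a row, in 18 transcript clusters, and 2 were called, beside 7.49% of all transcript clusters. The neighbours' share was not tested against that background, and nothing particular to them is read from it. TNC, the gene of the matrix glycoprotein tenascin C, adjoins PAPPA and was up-regulated, from a log2 signal of 4.13, below the background level, to 6.15 (log2 FC 2.02, SE 0.10, limma's adjusted p = 3.78e-05). TOP2A, the gene of a DNA topoisomerase of dividing cells, adjoins IGFBP4 and was down-regulated from 7.62 to 5.95 (log2 FC −1.67, SE 0.13, limma's adjusted p = 2.38e-04). INS, which adjoins IGF2, had a log2 FC of 0.09 that was not called.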
